A study of Homo sapiens with 6 samples.

Results

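The 9 genes VIL1, TSPAN8, TFF1, CDH17, EPS8L3, REG4, GCNT3, POU2F3 and MTAP were followed through 6 RNA-seq libraries of a human cancer cell line. They were picked by gene name from the authors' deposited table of 1099 genes, and all 9 were found there. That table is itself the top of the authors' extract-against-vehicle comparison, ranks 1 to 1099 by p-value of 11289 tested genes. Each gene's difference between the groups therefore helped to choose it and is given as a description. The number 11289 was worked out from the deposited plain and adjusted p-values, and is the number of genes adjusted over. Of the libraries, 3 came from cells given F/B extract, a combined extract that the series title names as Flos Sophorae Immaturus and broccoli seed, and 3 from cells given the vehicle, DMSO. All were wild type by the labels, were kept for 24 h, and gave polyA RNA. The labels name the line as A549, a lung adenocarcinoma line, while the library names in the labels begin with AGS, which is also the name of a gastric adenocarcinoma line. Nothing in the labels says whether the replicates came from separate cultures, so the spread given below is that between these libraries and may be technical.

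Epithelial cells of the stomach and gut carry proteins that other linings use little. Villin and its partners bundle and cap the actin filaments of microvilli, cadherin-17 joins neighbouring gut cells, trefoil peptides and mucins with branched O-glycans form the surface gel, and REG4 is a lectin secreted by gut endocrine and goblet cells. POU2F3 is the transcription factor that tuft cells, the chemosensory cells of these linings, depend on. MTAP is of another kind: it is the enzyme that salvages methionine and adenine from the waste product of polyamine synthesis, and it lies beside CDKN2A on chromosome 9 in a stretch that A549 is known to have lost from both copies.

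All 9 genes had lower fitted values with extract, as had 712 of the 1099 listed genes. Of the 9, 8 passed edgeR's quasi-likelihood test with Benjamini-Hochberg adjustment over the 11289 genes, at a threshold of 0.05. Over all listed genes, 52.9% were called lower and 28.9% higher by the same rule, and since the same comparison chose the table, nothing is read from the count of 8. The median log2 fold change, extract over vehicle, was -0.43 over the 9 genes and -0.22 over the 1099. Estimated counts over the listed genes summed to between 3084337 and 4640114 per library, which is part of each library and not its depth. In bulk RNA, fewer cells of a type and less RNA per cell cannot be told apart.

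MTAP is given first because it bears on the label. MTAP (ENSG00000099810, GRCh38 chromosome 9, 21802543 to 21937651, plus strand) stood at 48.9, 52.5 and 55.9 TPM in extract libraries, against 57.6, 56.0 and 60.5 TPM in vehicle libraries, where TPM is the share of transcript molecules after division by length, set to the same total in every library. It rested on 1548 to 1656 estimated counts with extract and 1811 to 2413 with vehicle, and ranked 542nd of the 1099 genes by mean TPM. An expressed MTAP goes against the label A549, so the cells are called here the cells labelled A549, and which line they were was not tested. In GENCODE 29 the exons of MTAP share 460 bases with AL359922.1 and 684 bases with ERVFRD-3 on the same strand, and 257 bases with AL359922.2 on the other, and 5 of its 6 estimated counts were not whole.

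In the other direction the label could be checked only through genes that changed enough to be listed. Of 21 lung epithelial genes, among them NKX2-1 and the surfactant genes, 1 was listed, LAMP3, a lysosomal membrane protein of mature dendritic cells and surfactant-making lung cells, at 26.6 ± 3.03 TPM with extract and 20.1 ± 0.396 TPM with vehicle (SD, n = 3 each). The others were not analysed here. CTSE, the aspartic protease cathepsin E of the gastric lining, was at 641, 649 and 678 TPM in extract libraries, against 829.9, 838 and 832 TPM in vehicle libraries. Of 11 genes around MTAP on chromosome 9, MTAP alone was listed.

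The stretches before the transcription starts of 4 of the genes are shown because these genes are described together and the letters differ between them. They are the 250 bases before a RefSeq start in GRCh38.p14, written 5′ to 3′ on the gene's strand, with matches on either strand in capitals. The motifs, chosen after the sequences had been seen, were TATAAA for the box that sets the start in many tissue genes, GGGCGG for the GC box, CCAAT for the box of that name, AGATAA for GATA-binding factors, TTTATG for the caudal factors CDX1 and CDX2, GTTAAT for the core of an HNF1 site, and TGANTCA for AP-1. No match overlapped another. Of the 9 genes 5 had an entry, TSPAN8 with 2 starts of which the downstream one is shown. In GENCODE 29 part of each window lies in an exon of the same gene, from 93 bases for MTAP to 220 for TSPAN8.
REG4, chr1:119811461-119811710, minus strand: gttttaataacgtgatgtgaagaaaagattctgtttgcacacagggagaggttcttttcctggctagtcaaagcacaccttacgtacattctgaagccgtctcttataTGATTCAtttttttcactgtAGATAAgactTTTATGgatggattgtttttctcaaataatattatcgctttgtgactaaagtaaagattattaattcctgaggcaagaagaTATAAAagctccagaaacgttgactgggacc
TSPAN8, chr12:71157810-71158059, minus strand: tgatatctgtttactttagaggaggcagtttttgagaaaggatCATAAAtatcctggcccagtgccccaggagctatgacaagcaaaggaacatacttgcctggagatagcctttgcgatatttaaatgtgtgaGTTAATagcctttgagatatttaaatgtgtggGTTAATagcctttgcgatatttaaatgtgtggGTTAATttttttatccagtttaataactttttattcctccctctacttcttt
GCNT3, chr15:59611533-59611782, plus strand: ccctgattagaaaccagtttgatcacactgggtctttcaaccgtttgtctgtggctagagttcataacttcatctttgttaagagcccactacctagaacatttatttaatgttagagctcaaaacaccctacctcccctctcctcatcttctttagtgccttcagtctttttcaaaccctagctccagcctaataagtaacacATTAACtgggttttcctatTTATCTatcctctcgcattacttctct
MTAP, chr9:21802386-21802635, plus strand: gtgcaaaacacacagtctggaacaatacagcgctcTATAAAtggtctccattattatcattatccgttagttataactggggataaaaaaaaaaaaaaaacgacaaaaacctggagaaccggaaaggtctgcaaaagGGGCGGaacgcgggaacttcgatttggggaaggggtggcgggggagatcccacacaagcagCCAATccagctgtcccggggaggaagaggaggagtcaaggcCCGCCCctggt

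The window of REG4 held a TATA box 31 to 26 bases before the start, with a GATA match, a TTTATG match and an AP-1 match farther up. That of TSPAN8 held GTTAAT 3 times, at a spacing of 32 bases, beginning 116, 84 and 52 bases before the start, and TTTATG once on the other strand. The 3 GTTAAT matches lie in near-identical copies of a 32-base repeat, so they are not independent matches. The window of the upstream TSPAN8 start, not shown, held a GC box 151 to 146 bases before that start. It also held a TTTATG match on the other strand, but no GTTAAT, so the matches of TSPAN8 depend on the start used. GCNT3 had GTTAAT once, beginning 46 bases before the start on the other strand, and 1 GATA match. MTAP had 2 GC boxes and a CCAAT box, with a TATAAA match 215 bases away from the start, and no match for a GATA, caudal or HNF1 factor. EPS8L3 had none of the 7 motifs in its window. Over all 35116 RefSeq windows of this length, 6.23% held GTTAAT, 9.64% TTTATG, 9.17% AGATAA, 6.57% TGANTCA, 10.7% TATAAA, 32.0% CCAAT and 42.6% GGGCGG. The GC content was 35.6% for REG4, 36.0% for TSPAN8 and 40.4% for GCNT3, where the median of all windows was 58.0%. That of MTAP lay between these and the median, and that of EPS8L3, at 61.2%, above the median.

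**Figure D1:**
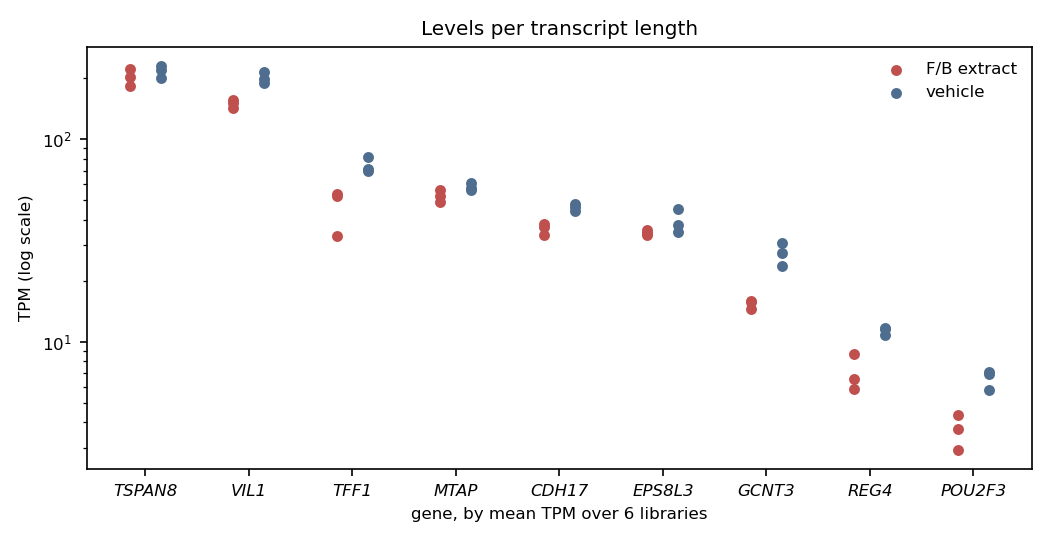
TPM on a log axis (vertical) of each gene (horizontal, by mean over the 6 libraries), with 1 point per library, F/B extract left of vehicle. TSPAN8 and VIL1 stood between 142 and 229 TPM and POU2F3 between 2.92 and 7.10 TPM.

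By TPM, which sets genes on a scale per length, the order of mean levels over the 6 libraries was TSPAN8 at 209.6, VIL1 at 175, TFF1 at 60.4, MTAP at 55.2, CDH17 at 41.1, EPS8L3 at 36.9, GCNT3 at 21.2, REG4 at 9.17 and POU2F3 at 5.12 TPM. Of the 8 neighbouring pairs in this order, 4 did not overlap over the 6 libraries: VIL1 over TFF1, MTAP over CDH17, EPS8L3 over GCNT3, and GCNT3 over REG4. TSPAN8 and VIL1, TFF1 and MTAP, CDH17 and EPS8L3, and REG4 and POU2F3 overlapped. MTAP stood above TFF1 with extract (52.4 and 46.5 TPM) and below it with vehicle (58.0 and 74.3 TPM). The median listed gene was at 53.7 TPM, so 4 of the 9 genes lay above it and 5 below. The order depended on the length used. With normalised counts per kilobase of the deposited gene length, CDH17 (659.9) came before VIL1 (523) and MTAP (244) came after GCNT3 (321). The deposited lengths are 6500 bases for VIL1 and 7557 for MTAP, against 2625 for CDH17 and 2360 for GCNT3.

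**Figure D2:**
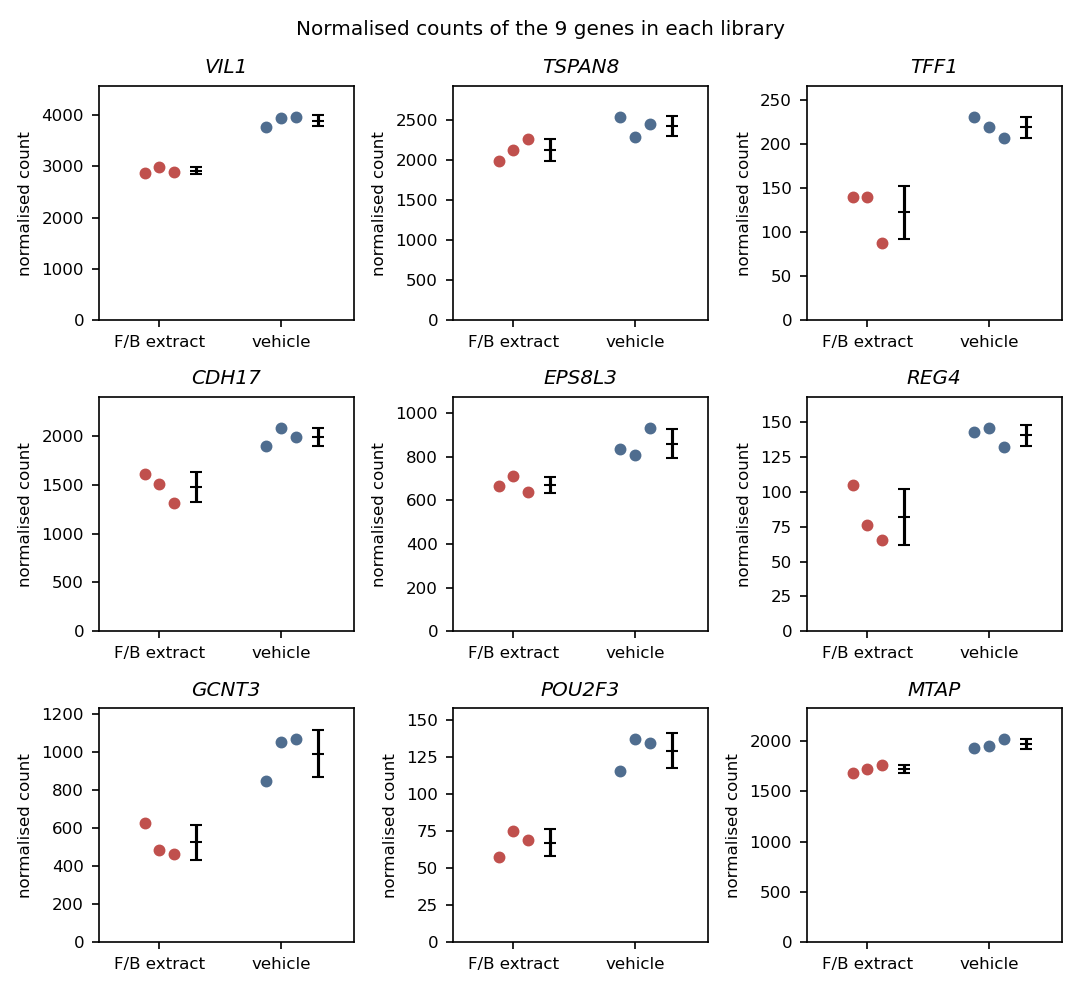
Normalised counts (vertical, from 0) of each gene in the 3 F/B extract libraries (left, red) and the 3 vehicle libraries (right, blue), with the group mean and SD in black. All 9 genes were lower in each extract library than in any vehicle library, with the narrowest gap in TSPAN8 (2256 against 2284). Of all 1099 listed genes, 63.9% were lower and 34.6% higher without overlap in this way.

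Microvillus genes were led by VIL1 (ENSG00000127831, chromosome 2, 218419092 to 218453295), the actin-bundling protein villin. Its normalised counts, that is estimated counts over the library's size factor, were 2867, 2989 and 2880.1 in extract libraries and 3763, 3928 and 3963 in vehicle libraries. The groups stood well apart, with a spread of 2.29% with extract and 2.75% with vehicle (coefficient of variation) where counting alone gives 1.91% and 1.55%. The log2 fold change was -0.42 (SE 0.04), or 1.33-fold lower with extract, and VIL1 ranked 25th of the table by the p-value in the authors' deposited table. In GENCODE 29 its exons share 3045 bases with USP37 on the opposite strand. Strand use in counting is not given in the sources used here, so reads of the pair cannot be told apart, and all 6 estimated counts of VIL1 were not whole. EPS8L3 (chromosome 1, 109750080 to 109764027) belongs to the EPS8 family of actin-regulating adaptors. It had 667, 709.9 and 636 normalised counts with extract, against 836, 808 and 933 with vehicle, a log2 fold change of -0.35 (SE 0.07). In TPM its groups overlapped, at 33.5 to 35.6 with extract and 34.8 to 45.1 with vehicle.

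CDH17 (chromosome 8, 94127171 to 94217303), the liver-intestine cadherin, had 1607, 1505 and 1313 normalised counts in extract libraries and 1897, 2083 and 1988 in vehicle libraries. The groups did not overlap, and the log2 fold change was -0.43 (SE 0.07), close in size to that of VIL1. TSPAN8 (chromosome 12, 71125085 to 71441898) is a tetraspanin, a class of membrane organisers that hold integrins and other receptors together. It had 1980.1, 2121 and 2256 normalised counts with extract, against 2536, 2284 and 2443 with vehicle, a log2 fold change of -0.19 (SE 0.06) that did not pass the test. Extract replicate 3 lay just under vehicle replicate 2. In TPM its groups overlapped, at 182, 202 and 223 with extract and 229, 201 and 219.7 with vehicle. TSPAN8 stood 1094th of the 1099 genes by the p-value in the authors' deposited table, close to the end of the list.

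Secreted peptides stood lower by a wider margin and with more scatter. TFF1 (chromosome 21, 42362282 to 42366594), the trefoil peptide that gastric surface cells secrete with mucin, had 140.3, 139.7 and 87.7 normalised counts in extract libraries and 231, 219 and 207 in vehicle libraries. Extract replicate 3 was far below the other two, and the spread with extract was 24.6% where counting alone gives 9.33%. The log2 fold change was -0.83 (SE 0.16), or 1.78-fold lower. REG4 (chromosome 1, 119794018 to 119811660), whose upstream stretch is given above, had 104, 76.1 and 65.2 normalised counts with extract, against 143, 146 and 132 with vehicle. Its spread was 24.7% with extract and 5.14% with vehicle, on 61 to 96 and 134 to 180 estimated counts, and the log2 fold change was -0.78 (SE 0.17). In both genes the extract group varied more than the vehicle group, and neither overlapped.

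The remaining pair had the lowest log2 fold changes of the 9. GCNT3 (chromosome 15, 59594875 to 59640239) is the enzyme of the mucin-making epithelium that adds the branches of core 2 and core 4 O-glycans. It had 629, 485 and 462 normalised counts in extract libraries and 847, 1053 and 1069.7 in vehicle libraries, a log2 fold change of -0.92 (SE 0.12), or 1.89-fold lower. Extract replicate 1 was the highest of its group and vehicle replicate 1 the lowest of its own. POU2F3 (chromosome 11, 120236640 to 120319944), the tuft-cell factor, was the least abundant of the 9, with 57.6, 75.1 and 69.5 normalised counts with extract, against 116, 138 and 135 with vehicle. The groups did not overlap, and the log2 fold change was -0.94 (SE 0.15), or 1.93-fold lower. POU2F3 and GCNT3 were the 17th and 19th lowest of the 1099 genes, TFF1 the 28th and REG4 the 36th, among 46 genes under -0.7, a bound set after the values were seen.

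For MTAP the normalised counts were 1683, 1726 and 1765 in extract libraries and 1928, 1955 and 2024 in vehicle libraries. The difference was small next to the genes above, at a log2 fold change of -0.19 (SE 0.04), and the spread within each group was 2.36% and 2.51%. In normalised counts all 9 genes were without overlap between the groups, where 63.9% of the table was lower and 34.6% higher in this way. In TPM 7 of the 9 were, where 44.2% of the table was lower and 32.2% higher, and MTAP was so by a narrow margin, at up to 55.93 TPM with extract and from 55.97 TPM with vehicle.

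**Figure D3:**
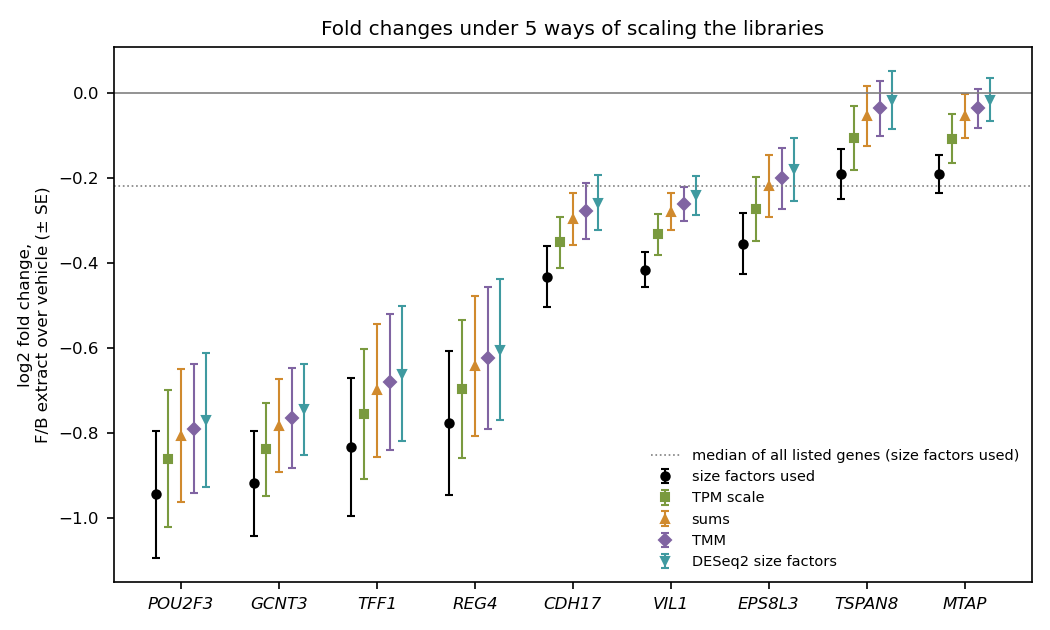
Log2 fold change, F/B extract over vehicle (vertical, with SE), of each gene under 5 ways of scaling the libraries. The dotted line is the median of all 1099 genes, -0.22, with the size factors used, and TSPAN8 and MTAP come closest to 0 under the other scales.

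How far the genes stood from 0 depended on the scale of the libraries. Relative to the size factors used, the median of all genes moved up by 0.08 when libraries were scaled as in the TPM values, by 0.14 when scaled to equal sums of listed genes, by 0.15 under TMM and by 0.17 under size factors that DESeq2 estimates from the listed genes. Equal sums, TMM and the DESeq2 factors were computed from the listed genes alone, which were chosen for differing between the groups. The calls over the listed genes, 581 lower and 318 higher, became 214 and 371 in TPM scaling, 126 and 386 in equal sums, 87 and 385 under TMM, and 86 and 387 under the DESeq2 factors. Under these last factors, POU2F3 was at -0.77, GCNT3 at -0.74, TFF1 at -0.66, REG4 at -0.60, CDH17 at -0.26, VIL1 at -0.24 and EPS8L3 at -0.18, while TSPAN8 and MTAP were both at -0.02. VIL1, TFF1, CDH17, GCNT3 and POU2F3 passed on all 5 scales. EPS8L3 and MTAP passed on none of the other 4, and REG4 on the TPM scale alone of them. Without vehicle replicate 2 the number of the 9 that passed was 2, VIL1 and GCNT3, and without vehicle replicate 3 it was 5.

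Ratios of counts within a library need no scale. The ratio of VIL1 to MTAP was 1.70, 1.73 and 1.63 in extract libraries, against 1.95, 2.01 and 1.96 in vehicle libraries. That of GCNT3 to MTAP was 0.374, 0.281 and 0.262 with extract and 0.439, 0.539 and 0.529 with vehicle. For POU2F3 it was 0.0342, 0.0435 and 0.0394 with extract, against 0.0602, 0.0704 and 0.0667 with vehicle. The ratios of TFF1, CDH17, EPS8L3 and REG4 to MTAP were also lower without overlap, which makes 7 of 8, and that of TSPAN8 overlapped, at 1.18, 1.23 and 1.28 with extract and 1.32, 1.17 and 1.21 with vehicle. Of the 1098 other listed genes, these 8 included, 19.2% had a ratio to MTAP that was lower and 35.6% one that was higher without overlap, and since the table and the genes were chosen on this comparison, nothing is read from the count. Computed from TPM, 4 of the 8 ratios did not overlap, those of VIL1, TFF1, GCNT3 and POU2F3, where 10.3% of the 1098 were lower and 36.2% higher. With the genes chosen on this comparison, such ratios only describe these libraries. They do not show that MTAP or TSPAN8 stayed the same.

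Within the groups the 9 genes deviated from their means in mixed directions. After each group was centred on its own mean, the 36 pairs of genes had Pearson r from -0.94 to 0.84 over the 6 libraries, with a median of 0.18 and 21 pairs above 0. CDH17 went with REG4 (r = 0.84) and GCNT3 (r = 0.81), VIL1 with POU2F3 (r = 0.83), and TSPAN8 against CDH17 (r = -0.94) and GCNT3 (r = -0.86). The points share libraries and size factors, and centring leaves few free values. With so few, a high r picked from many genes is not read as a link, and a low or negative r is not read as its absence. Among 1028 other named genes averaging 5 TPM or more, those most like VIL1 by this measure were C1orf116, PRDM1 and FAM102A (r = 0.98 for each), and those most like TFF1 were LRRFIP1 (r = 0.996), TMEM141 and ALDH7A1 (r = 0.99 for both). PSENEN (r = 0.996), MYADM and ADGRG1 (r = 0.98 for both) were closest to GCNT3, ZFYVE26 and SBDS (r = 0.99 for both) and SORL1 (r = 0.98) to POU2F3, and NES (r = 0.99), TASOR2 (r = 0.98) and ATP1B1 (r = 0.97) to MTAP. The log2 fold changes of these 15 genes ran from -0.42 to 0.36, on both sides of 0.

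**Figure D4:**
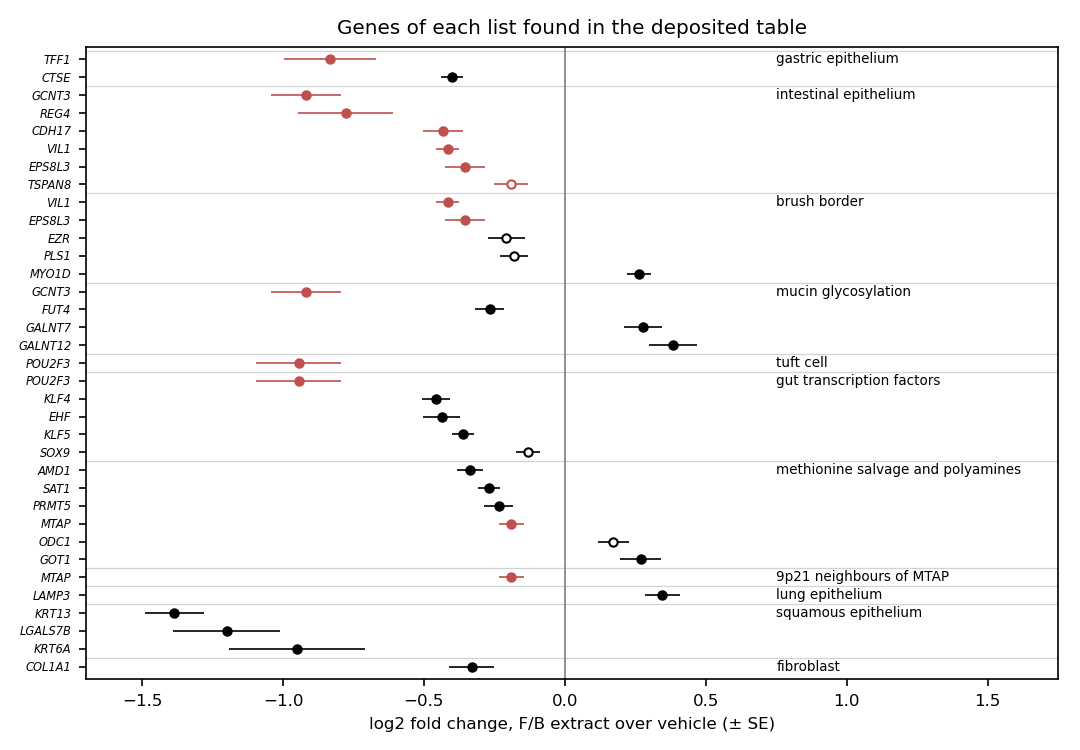
Log2 fold change, F/B extract over vehicle (horizontal, with SE), of every listed gene of each list (vertical, list names at the right). Red points are among the 9 genes, black points are other genes, and open points did not pass the test. TFF1 and CTSE of the gastric list and the genes of the intestinal list lie left of 0, and the mucin glycosylation list lies on both sides.

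Other genes of the same tissues and pathways were read from lists, and each count below is of listed genes by the same test. Over all 1099 listed genes that test called 52.9% lower and 28.9% higher, with a median log2 fold change of -0.22. The lists were written with earlier results known and hold members of the 9, so nothing is read from the counts. Of 43 intestinal epithelial genes 6 were listed, all of them among the 9, and 5 passed as lower with a median log2 fold change of -0.42. Of 23 gastric genes TFF1 and CTSE were listed and both passed, with CTSE at -0.40 (SE 0.04). CDX1, CDX2, HNF4A, LGALS4, MUC2, MUC5AC, MUC6 and CLDN18 were not among the listed genes. Of 29 tuft cell genes POU2F3 alone was listed.

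The brush border list had 5 of 18 genes in the table, 2 called lower and 1 higher. Besides VIL1 and EPS8L3, the motor myosin MYO1D was higher at 0.26 (SE 0.04), with 68.0 ± 3.61 TPM with extract and 49.9 ± 0.987 TPM with vehicle. The membrane linker ezrin, EZR, and the bundling protein plastin 1, PLS1, were at -0.21 (SE 0.07) and -0.18 (SE 0.05) and did not pass. Of the 11 listed genes that the authors' deposited table annotates to the brush border, 6, VIL1 included, passed as lower and 1 as higher. Over all listed genes the shares were 52.9% and 28.9%. The water channel AQP1 was the lowest of them at -1.56 (SE 0.16), at a mean of 2.53 TPM.

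Enzymes of mucin glycosylation went both ways. Of 32 genes 4 were listed, with GCNT3 and the fucosyltransferase FUT4, at -0.27 (SE 0.05), called lower. GALNT12 and GALNT7, which start O-glycan chains, were called higher at 0.38 (SE 0.09) and 0.28 (SE 0.07). GALNT12 was at 15.3, 14.5 and 14.8 TPM in extract libraries and 11.6, 11.4 and 10.3 TPM in vehicle libraries. The list's median log2 fold change was 0.00.

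Of 27 transcription factors of gut epithelium 5 were listed, all with lower values, and 4 passed. Beside POU2F3 these were the Krüppel-like factors KLF4 at -0.46 (SE 0.05) and KLF5 at -0.36 (SE 0.04) and the ETS factor EHF at -0.44 (SE 0.07), while SOX9 at -0.13 (SE 0.04) did not pass. KLF5 was at 228, 245 and 249.97 TPM with extract, against 293, 288 and 295 TPM with vehicle. Around MTAP, 6 of 22 genes of methionine salvage and polyamine metabolism were listed, 4 called lower and 1 higher. AMD1, which makes the aminopropyl donor for polyamines, was at -0.34 (SE 0.05), the polyamine acetylase SAT1 at -0.27 (SE 0.04) and the arginine methyltransferase PRMT5 at -0.23 (SE 0.05). In TPM the direction of PRMT5 turned, with overlapping groups at 188, 195 and 248.6 TPM in extract libraries and 157, 288 and 149.9 TPM in vehicle libraries. The transaminase GOT1 passed at 0.27 (SE 0.07), and ODC1, which makes putrescine, did not pass at 0.17 (SE 0.06).

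Markers of other epithelia moved too. Of 14 squamous genes 3 were listed and all were called lower, KRT13 at -1.39 (SE 0.10), LGALS7B at -1.20 (SE 0.19) and KRT6A at -0.95 (SE 0.24). Their summed level was 25.6 to 34.7 TPM in extract libraries and 60.1 to 66.1 TPM in vehicle libraries, and none of the 3 was at 0. TP63, KRT5 and KRT14 were not among the listed genes. LGALS7B has a near-identical copy, LGALS7, and its counts are uncertain. Of 10 fibroblast genes COL1A1 was listed at -0.33 (SE 0.08), at 10.0 to 14.9 TPM with extract and 12.8 to 15.8 TPM with vehicle, and of 10 leukocyte genes 0 were listed. The labels name a cell line and no other cells, and the source of this RNA was not tested.

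In the pathway annotation of the authors' deposited table, CDH17 and REG4 are 2 of 8 listed genes under gastric cancer. Of the 8, 6 passed as lower, where 52.9% of all listed genes did. CDH17 and REG4 are among the 6 and were chosen on this comparison, so nothing is read from the count. Among the 6 were CCND1, cyclin D1, at -0.39 (SE 0.06), MYC at -0.36 (SE 0.09), the Wnt signal carrier DVL1 at -0.32 (SE 0.07) and the Wnt feedback gene AXIN2 at -0.21 (SE 0.04). The exchange factor SOS2 passed as higher at 0.29 (SE 0.06), and the death effector BAX, at -0.18 (SE 0.05), did not pass.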

How the data were processed

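The authors deposited 1 table with estimated counts, TPM and a gene length per gene and library, per the file headers. The p-values, plain and adjusted, and the ratio and log2 forms of the fold change were also deposited by the authors, with vehicle on top. The sign was checked against the TPM ratio, which was opposite in 1091 of 1099 genes, and all values here are extract over vehicle. GRCh38.p13 is named in the submitters' processing notes. Which aligner, counter and gene models were used is not given in the sources used here. Gene positions come from GENCODE 29 on GRCh38.

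Estimated counts were rounded, since 31.8% to 35.9% of them in a library had a fractional part. Libraries were scaled by the size factors that the deposited fold changes imply (0.920, 0.959 and 0.935 for extract, 0.940, 1.23 and 1.05 for vehicle), and fold changes refitted with them differed from the deposited ones by a median of 6.49e-05 on the log2 scale. Genes were tested with edgeR 4.0.16 (R 4.3.3) over all 1099 genes with no covariate, and adjusted over 11289 genes. The fit was tried beforehand on simulated counts not selected on p-values, so that trial does not bear on a selected table. The spread was estimated from genes selected on small p-values, so p-values may be too small. Standard errors are the absolute log2 fold change over the square root of F. DESeq2 1.42.0 and limma 3.58.1 were alternatives. The genes, lists and tests were chosen with earlier results of these data known. Genes named beside the 9 are list members in the table, up to 6 per list by p-value, and the 3 most like each of 5 genes. The genes under the annotation terms were named after their values were seen. Deviations from group means used log2 of normalised counts plus 0.5.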

Additional observations from a re-analysis of the deposited data

How the results depend on the processing

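All 9 genes kept a lower value with extract in each of the 18 other settings. Of 162 fold changes 0 reversed, 34 lost the call and 126 kept their side of the threshold. Of the lost calls, MTAP had 11 in its 18 settings, EPS8L3 and REG4 9 each, TFF1 3, and CDH17 and POU2F3 1 each. The call was gained in 2, each for TSPAN8, without extract replicate 3 and with adjustment over the listed genes alone. The same comparison and libraries chose the genes, so nothing is read from the kept direction. The filter of a mean of 10 counts removed 0 genes, and adjustment over the listed genes left fold changes as they were. The 8 of 9 called lower became 5 under TMM, DESeq2 size factors or equal sums, and ran from 2 to 8 when 1 library was left out. Calls of listed genes lower, 581, became 87, 86, 126 and 214 with TMM, DESeq2 size factors, sums and the TPM scale, and 128 to 570 with a library left out. Calls higher, 318, ran from 50 to 287 with a library left out. Of the list genes, 20 called lower became 10, 10 and 12 with TMM, DESeq2 size factors and sums, and 9 to 21 with a library left out, and the 5 called higher ran from 0 to 5. TMM, DESeq2 size factors and sums used only genes chosen for differing between the groups, and the cause of the changed calls was not tested.

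Replicate numbers are shared by the groups, but same-numbered libraries did not deviate together (correlations of -0.23, -0.01 and -0.03 over 1099 genes), so no pairing was taken. With the replicate block the calls were 6 of the 9 genes lower, 232 listed genes lower and 90 higher, and 1 list gene higher. The number of neighbouring levels set apart was 4 by TPM and 3 by counts per kilobase. Estimated counts of 53 to 170 limit POU2F3, 61 to 180 limit REG4 and 82 to 270 limit TFF1. The spread was well above counting error in the extract groups of TFF1 and REG4, and near or below it in their vehicle groups and in both groups of POU2F3.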

Other observations

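The length behind the TPM values was not the same in every library. The estimated count over the TPM, set on the library's TPM scale, is the length by which a gene's count was divided. Its range over the 6 libraries was 1.08% of its mean for CDH17, 1.46% for TSPAN8 and 1.55% for REG4, against 17.3% for VIL1, 15.2% for EPS8L3, 11.8% for POU2F3, 10.5% for TFF1 and 4.38% for MTAP. It was widest for GCNT3 among the 9, at 1.12, 0.901 and 0.971 of the mean in extract replicates 1 to 3 and 0.997, 1.04 and 0.969 in vehicle replicates 1 to 3. GCNT3 in TPM was nearly level among the extract libraries, at 15.8, 15.6 and 14.4, where its normalised counts were 629, 485 and 462.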
